A study of Mus musculus with 4 samples.

Results

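The cullin genes encode the scaffolds of cullin-RING ubiquitin ligases, and the Kelch-like (Klhl) genes encode a family of substrate adaptors that serve Cul3. They were examined here in kidneys of mice without Usp2, a protease that takes ubiquitin off other proteins. Members were taken by a rule on names, set with earlier results of these data known. It took every gene of the array table whose single symbol is Cul or Klhl followed by a digit, without Cul3, Klhl2 and Klhl3. This gave 41 of the 19934 genes tested, of which 7 are cullins and 34 are Klhl genes. Where a gene had several rows on the array, the row with the highest mean over the 4 arrays was used.

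The samples were WT and Usp2-KO kidneys of male C57BL6/N mice aged 12 weeks, dissected at Zeitgeber time 12, that is 12 h after lights on, which the labels call the peak of Usp2 expression. Each genotype had 2 pools with RNA of 3 mice each, and pools of the same number came from littermates. How Usp2 was deleted, and whether in all cells, is not given in the sources used here. The values are log2 array values made with RMA, on which a difference of 1 is a doubling, and each comparison is Usp2-KO minus WT with limma. Nothing says how much mice within a pool varied, so only spread between pools enters. The SEs and confidence intervals are those of limma, which moves each gene's spread toward that of all genes. The spread of all genes carried 6.87 of the 8.87 degrees of freedom, so an SE is not the spread of that gene's pools alone.

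A cullin-RING ligase is built on a cullin, an elongated protein that holds a RING protein at one end and a substrate receptor at the other. Attachment of the small protein NEDD8 to the cullin switches the ligase on, and the COP9 signalosome takes it off again. Cul1 receives its substrates through Skp1 and F-box proteins, Cul2 and Cul5 through the elongins, and Cul4a and Cul4b through Ddb1. Klhl proteins serve Cul3: their BTB domain binds the cullin and their kelch propeller binds the substrate. In the distal kidney tubule, Cul3 with Klhl3 or Klhl2 sets the amount of WNK kinases and with it salt transport.

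In the 4 arrays the targeted gene matched the labels. Usp2 had log2 values of 11.63 and 11.71 in the WT pools and 7.65 and 7.60 in the Usp2-KO pools. Array medians lay between 7.44 and 7.46, and any pair of arrays correlated between 0.997 and 0.998 over the genes, which are not independent replicates. Of 10 kidney epithelial markers 9 were measured, with mean log2 values between 8.23 and 14.05, so the labelled tissue was matched by its markers. In the adipocyte list, Usp2-KO pool 1 stood apart. Its mean over the 6 measured markers was 7.05, against 7.48 in Usp2-KO pool 2 and 7.53 in each WT pool. In the urothelium list WT pool 2 stood apart, with a mean of 7.76 over 5 markers, against 7.45 to 7.59 in the other pools. Whole kidney is a mixture of cells, so fewer cells of a type and less RNA per cell cannot be told apart.

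The upstream DNA is shown for 4 members, picked by their p or difference in these data. Cul1 had the smallest p of the cullins, Cul4b had the smallest p with the littermate pools as a block, Klhl25 had the smallest p of all members, and Klhl33 was the lowest against WT among the muscle-type members. Each line gives the 250 bases before the outermost start in RefSeq on GRCm38.p6, 5′ to 3′, with every CG dinucleotide in capitals. The stretches lie at chr6:47453482-47453731 (plus strand), chrX:38576197-38576446 (minus strand), chr7:75848088-75848337 (plus strand) and chr14:50897484-50897733 (minus strand).
Cul1: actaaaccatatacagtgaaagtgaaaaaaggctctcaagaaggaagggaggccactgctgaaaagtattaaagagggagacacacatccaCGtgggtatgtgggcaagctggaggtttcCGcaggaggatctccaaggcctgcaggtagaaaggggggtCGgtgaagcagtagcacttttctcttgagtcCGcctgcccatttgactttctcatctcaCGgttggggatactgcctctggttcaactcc
Cul4b: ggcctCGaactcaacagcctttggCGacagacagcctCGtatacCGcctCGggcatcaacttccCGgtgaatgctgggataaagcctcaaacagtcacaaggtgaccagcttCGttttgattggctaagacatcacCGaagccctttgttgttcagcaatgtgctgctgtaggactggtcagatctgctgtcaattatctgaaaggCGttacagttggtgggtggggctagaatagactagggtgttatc
Klhl25: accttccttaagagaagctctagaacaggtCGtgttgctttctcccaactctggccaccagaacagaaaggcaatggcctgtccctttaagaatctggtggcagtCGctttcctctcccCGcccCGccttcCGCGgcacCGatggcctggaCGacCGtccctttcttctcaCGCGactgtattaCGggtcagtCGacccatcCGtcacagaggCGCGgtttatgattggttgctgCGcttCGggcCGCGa
Klhl33: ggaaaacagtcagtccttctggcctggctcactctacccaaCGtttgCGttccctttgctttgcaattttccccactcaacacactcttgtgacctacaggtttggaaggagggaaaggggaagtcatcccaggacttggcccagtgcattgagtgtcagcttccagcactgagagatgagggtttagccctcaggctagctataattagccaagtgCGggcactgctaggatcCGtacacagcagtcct

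These stretches hold 5 CG dinucleotides for Cul1, 9 for Cul4b, 20 for Klhl25 and 4 for Klhl33. RefSeq lists 2 further starts of Cul1, downstream, with 38 and 39 CG dinucleotides in the same length before them. Of the 41 members 34 were in the promoter table, and their median was 12.5, against 11 over the 15560 measured genes in it. The 5 muscle-type Klhl genes with an entry had 3 to 7. The letters CACGTG, the E-box that clock transcription factors read, begin 161 bases before the Cul1 start. The motif was searched because the kidneys were taken at a fixed clock time. It is its own reverse complement, so a single search covers both strands. It stood in the same window of 4 of 34 members (11.8%), namely Cul1, Klhl20, Klhl22 and Klhl28, and in 7.06% of the measured genes. A match of letters is a description and shows no binding.

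No member passed an adjusted p of 0.05 by limma with Benjamini-Hochberg adjustment over all genes. In the same comparison 1 of the 19934 genes, Usp2, passed, which is 0.00502%. At an unadjusted p under 0.05 there were 3 of 41 members (7.32%), against 9.11% of all genes. They were Cul1 and Cul2, 2 members higher in Usp2-KO kidney against 5.22% of all genes, and Klhl25, 1 member lower against 3.88%. The share among the members was thus near the background. The count was 1 without WT pool 1 (2.44%, against 6.57% of all genes) and 5 without Usp2-KO pool 1 (12.2%, against 10.2%). Differences ran from -0.19 for Klhl25 to 0.23 for Cul4b, and 24 of the 41 were above 0 (58.5%), against 47.5% of all genes. The median difference was 0.02 over the members and -0.01 over all genes. The median of the members was -0.0005 when Usp2-KO pool 1 was left out and -0.0060 when pool 2 of that genotype was.

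The intervals limit how large a change in array value could have gone unseen. The 95% confidence interval of a member reached a median of 0.17 to either side of its difference, from 0.16 for the narrowest to 0.28 for the widest. For 27 of the 41 members the whole interval lay between -0.25 and 0.25, a change of under 1.19-fold either way. For 40 it lay between -0.5 and 0.5, or under 1.41-fold. Cul4b was the exception, with an interval from -0.05 to 0.51. All these widths draw on the spread over all genes. Some members were dim and detection calls are not given, so a narrow interval does not bound the change of their RNA.

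**Figure D1:**
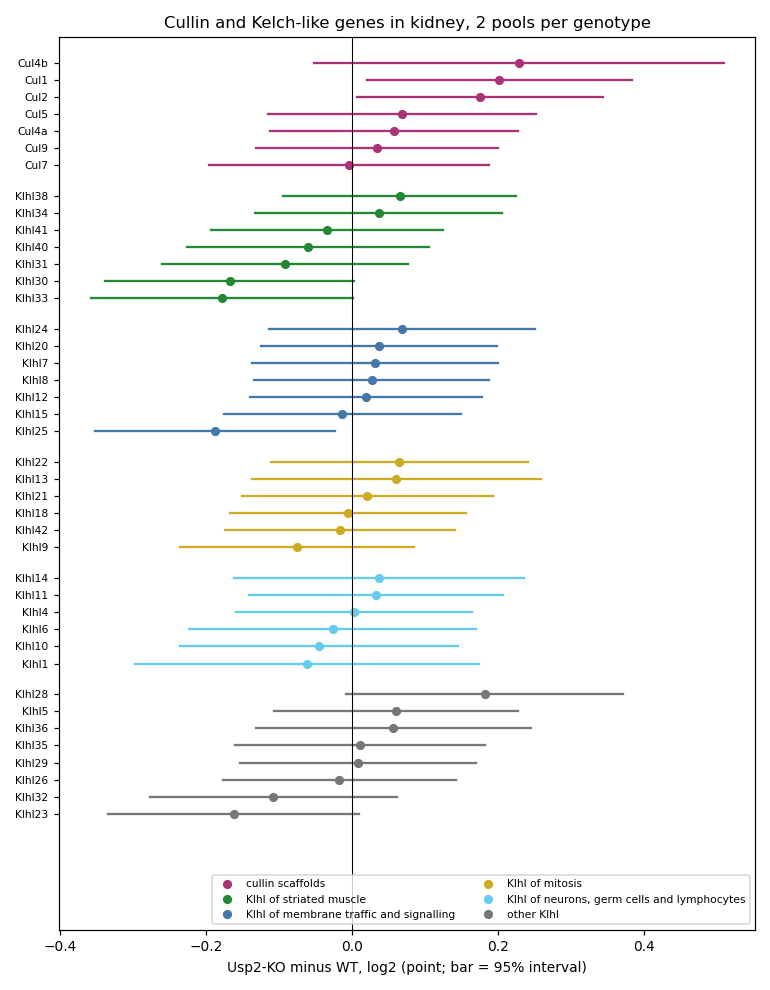
Difference in log2 array value, Usp2-KO minus WT, for all 41 members (points) with 95% confidence intervals from limma (bars), by role; n = 2 pools per genotype. The intervals of Cul1, Cul2 and Klhl25 do not cross 0, and all points lie between -0.19 and 0.23.

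Cul1, the scaffold of the F-box ligases, had log2 values of 8.70 and 8.69 in the WT pools and 8.81 and 8.98 in the Usp2-KO pools. Both Usp2-KO pools lay above both WT pools. The difference was 0.20 (SE 0.08, 95% confidence interval 0.02 to 0.38), or 1.15-fold (adjusted p = 0.505 by limma). The WT pools were close together, and the distance between the Usp2-KO pools made up most of the spread.

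Cul2, which works with the elongins and the von Hippel-Lindau protein, gave a like picture. Its values were 8.55 and 8.53 in WT and 8.66 and 8.77 in Usp2-KO kidney, without overlap. It was higher by 0.18 (SE 0.07, adjusted p = 0.532 by limma).

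Cul4b, a scaffold of Ddb1-linked ligases encoded on the X chromosome, differed most but also varied most. It had 7.16 and 7.52 in the WT pools and 7.45 and 7.69 in the Usp2-KO pools, so the genotypes overlapped. Its difference was 0.23 (SE 0.12, adjusted p = 0.626 by limma), and its SE stood at percentile 98.1 of all genes. Within littermates it was 0.29 in the pool 1 comparison and 0.17 in the pool 2 comparison. Without WT pool 1 it was 0.05, and without WT pool 2 it was 0.41. The pool 2 values were higher than the pool 1 values in both genotypes. With the littermate pools as a block its unadjusted p was 0.016, but the adjusted p was 0.34.

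Its paralogue Cul4a had 8.76 and 8.83 in WT and 8.90 and 8.80 in Usp2-KO kidney, a difference of 0.06 (SE 0.08). Cul5, the scaffold of the SOCS-box ligases, had 8.22 and 8.24 in WT and 8.21 and 8.38 in Usp2-KO kidney, a difference of 0.07 (SE 0.08). In both genes the genotypes overlapped. Whether probes of Cul4a and Cul4b could bind each other's RNA is not given in the sources used here.

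The last pair are large, atypical cullins that bind p53. Cul7, which forms a ligase with Fbxw8 and Obsl1, had 8.63 and 8.65 in WT and 8.74 and 8.54 in Usp2-KO kidney, a difference of -0.0050 (SE 0.08). Cul9 had 8.60 and 8.66 in WT and 8.70 and 8.63 in Usp2-KO kidney, a difference of 0.03 (SE 0.07). The littermate comparisons of Cul7 had opposite signs, 0.11 and -0.12, and both genes had genotypes that overlapped.

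6 of the 7 cullins were higher in Usp2-KO kidney (85.7%, against 47.5% of all genes), with a median of 0.07. None passed the adjusted threshold, and 2 of 7 had genotypes that did not overlap, against 38.9% of all genes in either direction. Both of these were higher (28.6%, against 19.8% of all genes higher without overlap). The count of higher cullins was 7 of 7 with the arrays centred on their medians and 6 of 7 with quantile normalization repeated. It was 5 of 7 without Usp2-KO pool 1 and 5 to 7 over the settings tried. Cul3, which the rule leaves out, had a larger difference than any member. It stood at 9.45 and 9.58 in WT and 9.85 and 10.03 in Usp2-KO kidney, higher by 0.42 (SE 0.09, adjusted p = 0.286 by limma). With the littermate block, in which all genes shared nearly the same spread, its adjusted p by limma was 0.0073. Klhl2 and Klhl3 differed by 0.15 and -0.04, with adjusted p-values of 0.569 and 0.907.

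**Figure D2:**
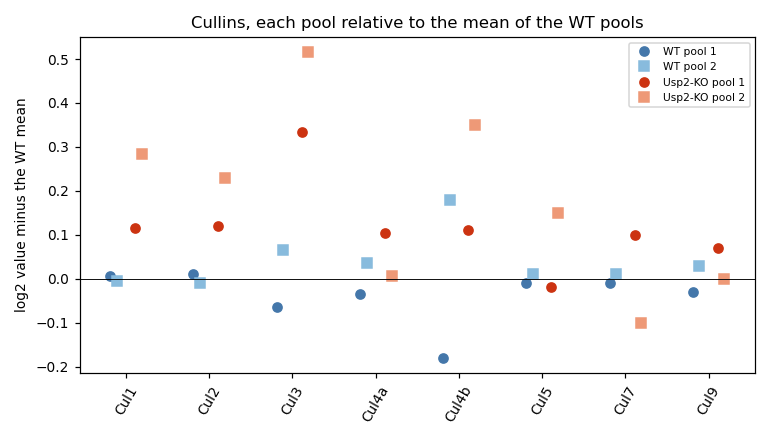
Log2 value of each pool minus the mean of the WT pools, for the 7 cullin members and Cul3; blue marks are WT pools, red and orange marks are Usp2-KO pools, circles are pool 1 and squares are pool 2. For Cul1, Cul2 and Cul3 both Usp2-KO marks lie above both WT marks; for Cul4b, Cul4a, Cul5, Cul7 and Cul9 the genotypes overlap.

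Of the Klhl adaptors 18 of 34 were above 0, with a median of 0.0053. Without Usp2-KO pool 2 it was 12 of 34, with a median of -0.01, and without WT pool 1 or without Usp2-KO pool 1 it was 15 of 34. Without overlap, 10 were lower and 2 higher, against 19.1% and 19.8% of all genes. Klhl25, the Cul3 adaptor of a repressor of translation, had log2 values of 7.54 and 7.54 in the WT pools and 7.31 and 7.40 in the Usp2-KO pools. Both Usp2-KO pools were below both WT pools. The difference was -0.19 (SE 0.07, 95% confidence interval -0.35 to -0.02), a level lower by 1.14-fold (adjusted p = 0.485 by limma). This was the smallest adjusted p of any member. With the littermate block it was 0.523.

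The other 6 adaptors of the membrane traffic and signalling group lay between -0.01 and 0.07. They were Klhl12, which helps to build large transport vesicles, Klhl20, which acts in the trans-Golgi network and in stress signalling, and Klhl15, which marks a subunit of a protein phosphatase. Klhl24, an adaptor that limits keratin, had the largest of these differences, 0.07. Klhl7 and Klhl8 were at 0.03 each. In the group as a whole 5 of 7 were above 0, and 1 of 7, Klhl25, had genotypes that did not overlap, against 38.9% of all genes.

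The Klhl genes known from striated muscle were mostly lower in Usp2-KO kidney. In this group of 7, 5 were lower, the median was -0.06, and 6 had genotypes that did not overlap, 5 of them lower and 1 higher. Over all genes 19.1% were lower and 19.8% higher without overlap. None passed the adjusted threshold, where the smallest adjusted p was 0.552 by limma. Klhl33 had 5.93 and 5.82 in WT and 5.75 and 5.63 in Usp2-KO kidney, and differed by -0.18 (SE 0.08). Klhl30 had 6.17 and 6.19 against 6.07 and 5.95, and differed by -0.17 (SE 0.08, adjusted p = 0.554 by limma). In both genes each Usp2-KO pool was below each WT pool.

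Klhl31, which is needed by skeletal muscle, had 6.69 and 6.80 in WT and 6.64 and 6.67 in Usp2-KO kidney, a difference of -0.09. A second row for Klhl31 gave -0.04. Klhl40 and Klhl41, which stabilise thin filament proteins and whose human counterparts are nemaline myopathy genes, differed by -0.06 and -0.03. Their genotypes were separate by little: the pool 2 littermates of Klhl40 differed by -0.0030 and the pool 1 littermates of Klhl41 by -0.0080. Klhl38 was higher by 0.07 without overlap, and Klhl34 by 0.04 with overlap. All 7 had low array values, with means between 5.78 and 6.87, and Klhl33 had a mean under 6, the level set by the filter on dim genes. The number lower was 4 of 7 with quantile normalization repeated and 6 of 7 without WT pool 2. The files hold no detection calls.

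Of 10 skeletal muscle markers 9 were lower, with a median of -0.07, and their mean log2 value was 6.90 and 6.89 in the WT pools and 6.85 and 6.81 in the Usp2-KO pools. Myh1, a fast myosin heavy chain, had 5.85 and 5.82 against 5.63 and 5.60 and was lower by 0.22 (adjusted p = 0.394 by limma). Myl1, a myosin light chain, was higher by 0.15. Acta1, the actin of skeletal muscle, had 7.79 and 7.76 against 7.71 and 7.60. None of the 10 passed. Markers of other tissues were mostly lower as well: all 5 of pancreas (median -0.07, 2 at an unadjusted p under 0.05 against 3.88% of all genes), all 5 of urothelium (median -0.15), 5 of 6 of adrenal cortex (median -0.07) and 5 of 6 of adipocytes (median -0.38). In the pool 1 and pool 2 littermates the medians were -0.08 and -0.05 for muscle and -0.02 and -0.11 for adrenal cortex. They were -0.67 and -0.08 for adipocytes, -0.15 and 0.01 for pancreas and 0.03 and -0.33 for urothelium. The lists thus shared a direction in the genotype medians, but not all of them in both comparisons. Of 9 kidney epithelial markers 6 were higher, with a median of 0.05. The part of any list in the values of the muscle-type Klhl genes was not tested.

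**Figure D3:**
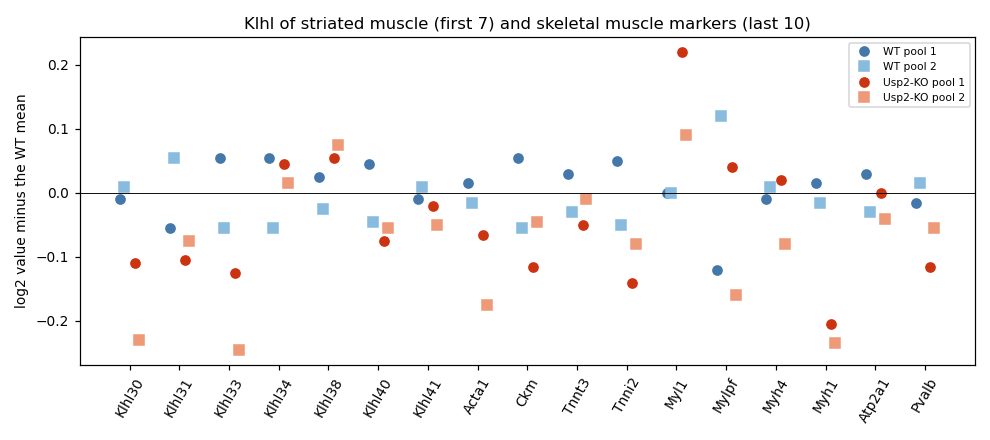
Log2 value of each pool minus the mean of the WT pools, for the 7 Klhl genes known from striated muscle and 10 skeletal muscle markers; blue marks are WT pools, red and orange marks are Usp2-KO pools, circles are pool 1 and squares are pool 2. Most Usp2-KO marks lie below 0, down to Klhl33 and Klhl30 on the left and Myh1 on the right, while Myl1 and Klhl38 lie above.

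Adaptors with a role in mitosis stayed near 0, from -0.08 to 0.06, with 3 of 6 above 0. Klhl9, which with Klhl13 and Cul3 removes Aurora B from mitotic chromosomes, had the largest of these differences. It stood at 9.79 and 9.79 in WT and 9.74 and 9.69 in Usp2-KO kidney, lower by 0.08 (SE 0.07, adjusted p = 0.801 by limma). Its partner Klhl13 was at 0.06, with 0.22 in the pool 1 littermates and -0.10 in the pool 2 littermates. Klhl9 and Klhl13 are close paralogues, so shared probes are possible. Klhl21, another Aurora B adaptor, was at 0.02 and Klhl22, the adaptor of the kinase Plk1, at 0.06. Klhl18, the adaptor of Aurora A, was at -0.0060. Klhl42, which controls the microtubule-severing protein katanin, had an SE at percentile 1.61 of all genes and differed by -0.02, with an interval from -0.18 to 0.14.

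Members known from neurons, germ cells and lymphocytes showed no shared direction. Of 6, 3 were above 0, 0 of 6 had genotypes that did not overlap, against 38.9% of all genes, and in 0 of 6 did the littermate comparisons share a sign. Over all genes 51.5% shared a sign. Klhl1, a neuronal actin-binding protein, had 6.13 and 6.16 in WT and 5.92 and 6.25 in Usp2-KO kidney. Its difference of -0.06 (SE 0.10) came from -0.21 and 0.08 in the littermate comparisons. Klhl10, needed by spermatids, was at -0.05 and Klhl11 at 0.03. Klhl6, of germinal centre B cells, was at -0.03, from -0.18 between the pool 1 littermates and 0.13 between the pool 2 littermates. Klhl14 was at 0.04. Klhl4 was at 0.0025. The 5 measured B cell markers had a median of -0.04, with 4 of 5 lower, and 6 neuronal markers had a median of -0.04, with none passing in either list.

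Among the remaining 8 Klhl genes, Klhl28 was the highest and Klhl23 the lowest. Klhl28 had 8.18 and 8.11 in WT and 8.23 and 8.42 in Usp2-KO kidney. The groups did not overlap, though the lower Usp2-KO pool exceeded the higher WT pool by little. It was higher by 0.18 (SE 0.08, adjusted p = 0.565 by limma), with 0.06 and 0.31 in the littermate comparisons. Klhl23 had 6.51 and 6.64 against 6.41 and 6.41, and was lower by 0.16 (SE 0.08, adjusted p = 0.569 by limma). Klhl32 had 7.57 and 7.45 against 7.40 in both Usp2-KO pools, lower by 0.11, while its second, dimmer row differed by -0.04. Klhl5, Klhl36, Klhl35, Klhl29 and Klhl26 lay between -0.02 and 0.06.

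Across all members, 14 of 41 (34.1%) had genotypes that did not overlap, against 38.9% of all genes. By direction, 4 were higher, against 19.8% of all genes, and 10 lower, against 19.1%. All 10 lower ones were Klhl genes, while 2 of the 4 higher ones were cullins. The littermate comparisons had the same sign in 18 of 41 members, against 51.5% of all genes. A two-sided exact permutation test of 2 arrays against 2 cannot give a p below 0.333, so it was not used for single members. With the littermate pools as a block, 0 members passed an adjusted p of 0.05, against 153 of all genes (0.768%). The paired fit gave 3 members at an unadjusted p under 0.05, against 9.22% of all genes: Cul1, Cul4b and Klhl25.

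**Figure D4:**
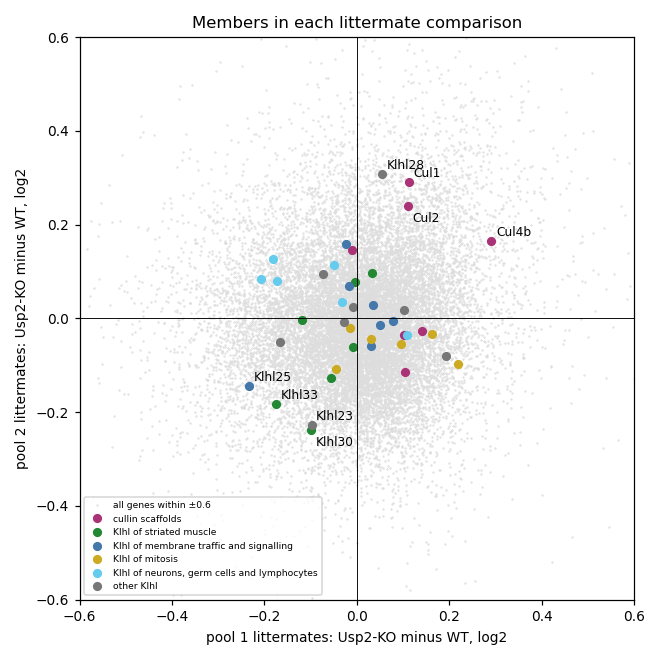
Difference in log2 value between the pool 1 littermates (horizontal) and between the pool 2 littermates (vertical), Usp2-KO minus WT; grey points are all genes within the frame, coloured points are the 41 members by role. Cul1, Cul2, Cul4b and Klhl28 lie above 0 in both comparisons and Klhl25, Klhl33, Klhl30 and Klhl23 below 0 in both, inside the cloud of all genes.

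Gene length varied widely among the members, from 2.63 kb for Klhl34 to 413.8 kb for Klhl1 in RefSeq. Their median was 33.8 kb, against 17.7 kb over the measured genes, and that of the cullins was 45.8 kb. Over all genes, the median difference was -0.03 in the shortest of 5 equal bins by length and 0.02 in the longest. The rank correlation of difference with length was 0.19 over 19852 genes and 0.29 over the 41 members, given as a description of genes that share the same arrays. Of the 7 cullins, 6 lay in the longest 2 bins. Of the muscle-type Klhl genes, the median length was 11.3 kb. The part of gene length in the members' differences was not tested.

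Differences also moved with the CG content of the upstream DNA, in bins set after the promoter counts were seen. Over all measured genes the median difference was -0.02 with 0 to 4 CG dinucleotides in the 250 bases, and 0.01 with 15 or more. Of the 8 members with 0 to 4, 1 was higher in Usp2-KO kidney, against 40.2% of all genes in that bin. Among these 8 are the muscle-type Klhl31, Klhl33 and Klhl40, described above as lower. The bins use the outermost start of each gene. Klhl23, with 4 there, has further starts with 6 and 29, and Cul1, with 5 there, has further starts with 38 and 39. Of the 13 members with 5 to 14, 9 were higher, against 46.0%, and of the 13 with 15 or more, 9 were higher, against 55.0%. This was not tested either.

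The partners of the cullins were listed by role, 188 measured genes in all. None passed the adjusted threshold by limma, and 16 had an unadjusted p under 0.05 (8.51%, against 9.11% of all genes). By direction, 15 of the 188 were higher, against 5.22% of all genes, and 1 was lower, against 3.88%. The median difference of the 188 was 0.02, with 0.06 in the pool 1 littermates and -0.0005 in the pool 2 littermates. Without overlap, 57 were higher and 23 lower, against 19.8% and 19.1%. With the littermate block 3 passed, against 0.768% of all genes: Cops2, Socs1 and Cish.

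The genes that attach NEDD8 and the RING proteins and ubiquitin-conjugating enzymes that act with cullins were mostly higher. Of 19 measured, 17 were above 0 (89.5%, against 47.5% of all genes), with a median of 0.09, and 11 were higher without overlap, against 19.8%. At an unadjusted p under 0.05 there were 3, all higher (15.8%, against 5.22% of all genes): Dcun1d5, a NEDD8 ligase, at 0.21 (SE 0.07, adjusted p = 0.435 by limma), Nae1, a subunit of the NEDD8-activating enzyme, at 0.19, and Arih1, a ligase that works on neddylated cullins, at 0.17. Nae1 had 8.59 and 8.57 in WT and 8.70 and 8.83 in Usp2-KO kidney. Nedd8 itself had 8.57 and 8.61 against 8.70 and 8.78, a difference of 0.14 (adjusted p = 0.601). The RING genes Rbx1 and Rnf7 differed by 0.06 and 0.07. The number above 0 was 18 of 19 with median centring, 17 with repeated quantile normalization, and 15 to 18 when 1 pool was left out. Like the cullins, these genes were long, with a median of 35.6 kb, and the part of length was not tested.

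Genes that remove NEDD8 or exchange receptors had 7 of 13 above 0 and a median of 0.02. Cops2, a subunit of the COP9 signalosome, had the largest difference. It had 8.49 and 8.74 in WT and 8.85 and 9.20 in Usp2-KO kidney, higher by 0.41 (SE 0.12, adjusted p = 0.383 by limma, and 0.010 with the littermate block). Glmn, an inhibitor of RING proteins, differed by 0.13 and Cops5, the catalytic subunit, by 0.10.

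Of the linkers, Eloc (elongin C), which joins receptors to Cul2 and Cul5, had 8.96 and 9.01 in WT and 9.23 and 9.33 in Usp2-KO kidney. It was higher by 0.30 (SE 0.07, adjusted p = 0.318 by limma). Its partner Elob was at -0.07, Skp1 at 0.07, Ddb1 at -0.06 and Ddb2 at 0.04.

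Receptors differed by list. Of 42 F-box genes of Cul1 ligases, 24 were above 0 with a median of 0.03, and 13 were higher and 3 lower without overlap, against 19.8% and 19.1% of all genes. Of these, Fbxo28 (0.25), Fbxo11 (0.22) and Fbxo30 (0.15) had the smallest p. Of 39 receptors of Cul2 and Cul5, 19 were above 0 with a median of -0.0005. The cytokine signalling inhibitor Socs1 had 8.44 and 8.49 in WT and 8.21 and 7.98 in Usp2-KO kidney, lower by 0.37 (SE 0.09, adjusted p = 0.301 by limma, and 0.030 with the block). Socs4 was at 0.35 and Asb7 at 0.19. Cish, another SOCS-box gene, passed with the block alone (adjusted p = 0.030), and its littermate comparisons had opposite signs, 1.07 and -0.18.

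Of 25 receptors of Cul4 ligases 16 were above 0 (64.0%, against 47.5% of all genes) with a median of 0.04. Without overlap, 8 were higher and 4 lower, against 19.8% and 19.1% of all genes. At an unadjusted p under 0.05 there were 3, all higher (12.0%, against 5.22% of all genes): Phip (0.23), Dtl (0.22) and Cop1 (0.20). The 4 partners of Cul7 and Cul9 had a median of -0.06, with Glmn at 0.13, Ccdc8 at -0.11 and Fbxw8 at -0.07. Of 43 genes of other BTB proteins, listed here as possible adaptors of Cul3, 20 were above 0 with a median of -0.01. Kbtbd8 was at 0.29, Spop, a receptor often mutated in prostate cancer, at 0.21 and Kctd9 at 0.17. Keap1, the adaptor that keeps NRF2 low, had a difference of 0.09 (adjusted p = 0.754).

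**Figure D5:**
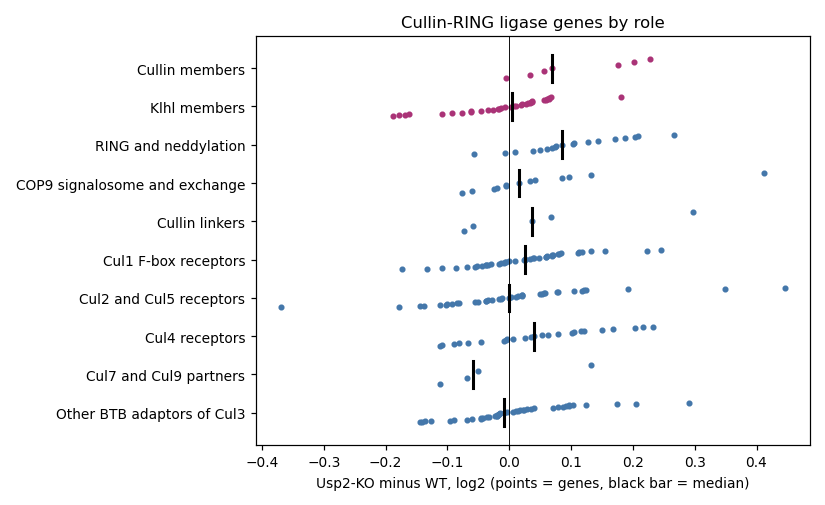
Difference in log2 value, Usp2-KO minus WT, for every measured gene (points) of the cullin and Klhl members and of 8 lists of cullin-RING ligase genes, with the median of each (black bar). Medians lie between -0.06 and 0.09, with the cullins (0.07) and the RING and neddylation genes (0.09) highest.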

How the data were processed

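The authors deposited 1 table of log2 expression values, made with RMA per the submitters' processing notes, which corrects background, equalises array distributions and summarises probe sets. Each Affymetrix whole-transcript array received target made from 300 ng of pooled RNA, per the labels' protocols. The software version and any filter on rows are not given in the sources used here. Of 28270 rows, 21780 carried 1 gene symbol in the platform annotation, which gave 19934 genes, all tested without a signal filter. Usp2-KO minus WT was fitted on all genes in R 4.3.3 with lmFit and eBayes of limma 3.58.1 (genotype as the term), with Benjamini-Hochberg adjustment and a threshold of 0.05. The fit was tested on simulated data with log2 changes of 0.25, 0.5, 1 and 2, in equal numbers, put into few of the genes. At the adjusted threshold it recovered 2.1% of changes of 0.25, 70.9% of changes of 0.5 and 99.5% of changes of 1. In such data, differences of the size seen in the members would seldom pass. The larger changes put in make the adjusted threshold easier to reach, whereas in the arrays only Usp2 passed. Recovery of changes of 0.5 can therefore be lower in the arrays than in the simulation. The number of arrays limits precision.

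The series' design text says that pools of 1 number hold littermates, so a paired fit, blocked on the pool number, was made too. The deviations of same-numbered pools correlated at -0.121, so the crossed pairing was also run. With the block the prior had 90.6 degrees of freedom, so all genes shared nearly the same spread. An adjusted p with the block thus says little of how far the littermate comparisons of a gene agreed.

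The members, role groups, partner lists and naming rule were chosen with earlier results of these data known, so no p is given for any list. All cullins were named with their pools, as were the 8 Klhl genes of smallest p and the member of largest difference in each role group. Of the partner lists, up to 3 genes of smallest p were named. Nedd8, Rbx1, Rnf7, Ddb1, Ddb2, Keap1, Cish, Myh1, Myl1, Acta1 and the remaining members were named after their values were seen. RefSeq tables of GRCm38.p6 gave gene lengths (41 of 41 members) and upstream sequence. Figures were drawn with matplotlib 3.10.9.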

Additional observations from a re-analysis of the deposited data

How the results depend on the processing

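No member passed an adjusted p of 0.05 by limma under any of the 14 alternatives run, adjusted p under 0.10 included. The replicate block, which pairs the littermate pools, left the count of members at an unadjusted p under 0.05 at 3. That count was 6 of 38 with a mean log2 value of at least 6 required (15.8%, against 10.6% of all genes), 1 with quantile normalization repeated (2.44%, against 8.46%), 5 with the crossed pairing, chosen after the data were seen (12.2%, against 11.2%), and 1 to 5 with 1 pool left out (against 6.57% to 10.2%). It was 1 without WT pool 1 (Klhl23) and 5 without Usp2-KO pool 1 (Cul1, Cul2, Klhl28, Klhl30 and Klhl33). The median difference of the members, 0.0185, was 0.0105 over every row, 0.0302 with median centring and 0.0049 with quantile normalization repeated, and -0.0060 to 0.0195 with 1 pool left out. It was below 0 without either Usp2-KO pool. Of 191 recomputed values of 16 named members, 6 changed sign. These 16 were the cullins, the Klhl genes of smallest p and Klhl1. The block, the crossed pairing and changes to how limma moves the spreads leave a difference the same by construction. Many of the 191 values therefore could not change sign. Members outside the 16 also changed sign with 1 pool left out, among them Klhl24, at -0.017 to 0.153. Cul7 was at 0.0068 with median centring and at -0.11 to 0.10 with 1 pool left out. With 1 pool left out, Cul5 was at -0.019 to 0.156, Cul9 at -0.0025 to 0.0705 and Klhl1 at -0.23 to 0.10. Why these values moved was not tested. Overlap of genotypes was not run with a pool left out, since 2 values against 1 are separate more often.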
